A study of Caenorhabditis elegans with 6 samples.

Results

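The genes described here encode the core machinery of the early secretory pathway of *Caenorhabditis elegans*. They were all rows of the gene count table whose WormBase symbol starts with *sec-*, *copa-*, *copb-*, *copd-*, *cope-*, *copg-*, *copz-*, *trap-*, *spcs-*, *srpa-* or *tmed-*, together with *sar-1*, *tfg-1*, *arf-1* and *tram-1*. This rule took 45 of 20447 genes. It read symbols only and no measured value, but the group was chosen with earlier results of these data known. Parts of the same machines that carry other WormBase names were not taken.

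A secreted or membrane protein is recognized during its synthesis by the signal recognition particle, threaded into the endoplasmic reticulum (ER) through the SEC61 translocon, and freed of its signal peptide by signal peptidase. Vesicles with a COPII coat then carry it from the ER toward the Golgi, while vesicles with a COPI coat return receptors and escaped ER proteins. SNARE proteins fuse these carriers with their target membranes, and the exocyst tethers later carriers at the plasma membrane.

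Poly(A)+ RNA of whole animals with and without EBAX-1, the nematode ortholog of ZSWIM8, was sequenced in 6 libraries. ZSWIM8 selects substrates for an E3 ubiquitin ligase involved in microRNA decay. The study used the L1 libraries for mRNA changes and microRNA targets. It used the adult libraries for protein-coding genes near germline piRNAs that were lower in the mutant. *ebax-1(tm2321)* mutant larvae (strain CZ9907) and wild-type larvae (N2) gave 2 libraries each, at the first larval stage (L1) after hatching without food. *ebax-1(tm2321)* mutant adults (strain FX02321) and wild-type adults (N2) gave 1 library each, from gravid animals grown with food for about 68 h. All animals were kept at 20 °C and synchronized with bleach, and the libraries started from 3 µg of larval or 10 µg of adult total RNA. The mutants of both stages carry the same allele in different strains, so stage and mutant strain cannot be told apart, and the study proposes that the *tm2321* line also carries a second-site mutation. With RNA from whole animals, fewer cells of a type and less RNA per cell cannot be told apart.

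The libraries held 10937932 to 21328335 assigned reads. The targeted gene *ebax-1* (chromosome IV, 10286955 to 10293013) stood at 40.8 and 46.2 CPM (counts scaled for library size after TMM normalization) in mutant L1 larvae, against 76.0 and 74.0 CPM in wild-type L1 larvae (log2 fold change -0.79, SE 0.0972, adjusted p = 5.07e-06 by edgeR). In adults its ratio of mutant to wild type was 0.417, with a 95% counting interval of 0.364 to 0.477. The part removed by the allele was not counted separately, so these reads do not measure intact transcript. The summed yolk protein genes, a mark of the adult intestine, stood at 42460 CPM in the mutant adult and 37960 CPM in the wild-type adult, and between 2.71 and 4.01 CPM in the L1 libraries.

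All 45 genes were detected in every library, with 18 to 2906 reads in an L1 library and 20 to 6056 reads in an adult library, and all 45 passed the filter on low counts at both stages. Together they took 0.339% and 0.311% of the reads of the mutant L1 libraries, against 0.249% and 0.239% in wild-type L1 larvae. The share was higher in both mutant L1 libraries than in either wild-type one. These are shares of total counts, a scale on which the median log2 fold change of all genes tested in L1 larvae was 0.17. In adults the share was 0.393% in the mutant and 0.412% in wild type.

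In *ebax-1* L1 larvae, 24 of the 45 secretory pathway genes rose (53.3%) and 0 fell, where 6.59% of all 13756 genes tested rose and 9.97% fell (edgeR quasi-likelihood test, Benjamini-Hochberg adjusted over all genes, threshold 0.05). No gene with a negative change had an unadjusted p under 0.05, so the count of falls was 0 without adjustment too, and it was 0 with DESeq2. The rises were modest, between 1.2-fold and 1.61-fold, and 0 genes changed 2-fold. The median log2 fold change over the 45 genes was 0.35, beside 0.0060 over all genes tested, and 39 genes were above 0 and 6 below, beside 50.9% of all genes above 0. Both mutant libraries lay above both wild-type libraries for 36 of the 45 genes (80%), beside 27.8% of all genes, and below them for 1, *sec-8*, beside 28.3% of all genes. The 45 genes had a median of 47.6 CPM in wild-type L1 larvae, beside 15.7 CPM over all genes tested. A small change is easier to call with more reads, and these shares were not matched for level. The count of rises was 13 with DESeq2, 11 without wild-type replicate 1, and 11 again when wild-type replicate 2 was omitted. The share of all genes that rose was also lower in these fits, at 3.1% with DESeq2, 4.17% without wild-type replicate 1 and 3.67% with wild-type replicate 2 omitted. The count was 16 without mutant replicate 1, where 6.98% of all genes rose. Scaling by total counts moved the median of all genes by over 0.1, to 0.17, and gave 33 rises among the 45 genes, beside 17% of all genes. On that scaling 5.29% of all genes fell, and 44 of the 45 genes were above 0, so the small negative changes given below for all but 1 gene turned positive.

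**Figure D1:**
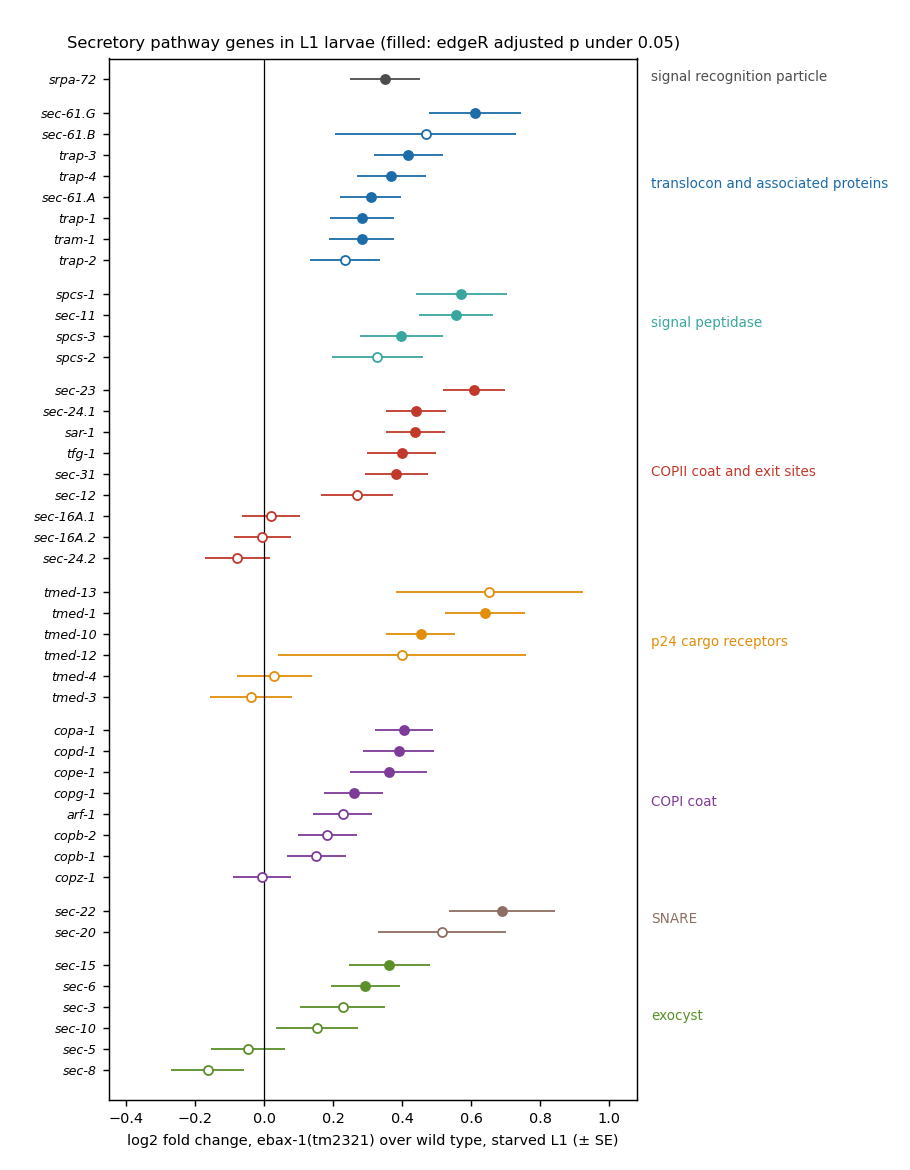
Log2 fold change of 44 of the 45 genes in starved L1 larvae, *ebax-1(tm2321)* over wild type (2 libraries each, horizontal axis), with bars of ± 1 SE, grouped by role down the page. Filled points passed the edgeR test, and 24 filled points lie between 0.26 and 0.69 while 6 open points lie below 0.

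The signal recognition particle binds signal peptides as they leave the ribosome. Its protein subunit gene *srpa-72* stood at 51.0 and 46.5 CPM in mutant L1 larvae, against 37.6 and 39.0 CPM in wild-type L1 larvae. It rose, with a log2 fold change of 0.35 (SE 0.102, adjusted p = 0.0211 by edgeR). The groups did not overlap.

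Of the 8 genes of the translocon and its associated proteins, 6 rose, and for all 8 both mutant libraries lay above both wild-type libraries. The largest change of the called genes was that of *sec-61.G* (chromosome V, 10896658 to 10897143), the small gamma subunit of the channel, with 28.4 and 31.1 CPM in mutant against 17.2 and 21.8 CPM in wild-type L1 larvae. Its log2 fold change was 0.61 (SE 0.134, adjusted p = 0.00268 by edgeR). *sec-61.A* (chromosome IV, 14822540 to 14825264), which encodes the channel itself, stood at 194 and 167 CPM in mutant and 148 and 144 CPM in wild-type L1 larvae. Its change was smaller, 0.31 (SE 0.0893, adjusted p = 0.0202 by edgeR). The beta subunit gene *sec-61.B* was counted only 53 and 56 times in mutant and 41 and 41 times in wild-type L1 libraries, and its log2 fold change of 0.47 had an SE of 0.263 (adjusted p = 0.26 by edgeR). With so few reads the test did not separate a change of that size from 0, although the groups did not overlap.

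The TRAP complex sits beside the channel and assists the entry of some signal peptides. *trap-3* stood at 47.9 and 50.1 CPM in mutant against 36.5 and 36.9 CPM in wild-type L1 larvae (log2 fold change 0.42, adjusted p = 0.006 by edgeR). *trap-4* had 75.2 and 71.9 CPM in mutant against 62.2 and 51.7 CPM in wild-type L1 larvae (0.37, adjusted p = 0.0136 by edgeR). The wild-type libraries of *trap-4* lay farther apart than the mutant ones, but did not reach them. *trap-1* had 77.5 and 73.1 CPM in mutant against 64.4 and 59.3 CPM in wild-type L1 larvae (0.28, adjusted p = 0.0402 by edgeR). *tram-1*, whose product is another membrane protein at the channel, had 61.9 and 59.2 CPM in mutant against 50.2 and 49.3 CPM in wild-type L1 larvae (0.28, adjusted p = 0.0443 by edgeR). *trap-1* and *tram-1* were close to the threshold. *trap-2* did not pass, with a log2 fold change of 0.23 and an adjusted p of 0.126 by edgeR. *sec-61.B* and *trap-3* are neighbours on chromosome IV, 770 bases apart and on opposite strands. *tram-1* lies 65668 bases from *ebax-1*.

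Signal peptidase cuts the signal peptide from the growing chain, and 3 of its 4 genes rose. *sec-11* (chromosome I, 3028325 to 3031092), the catalytic subunit, stood at 45.2 and 43.3 CPM in mutant against 31.7 and 28.4 CPM in wild-type L1 larvae. Its log2 fold change was 0.56 (SE 0.108, adjusted p = 0.000908 by edgeR). The accessory subunit *spcs-1* (chromosome I, 10682472 to 10683048) stood at 32.6 and 26.2 CPM in mutant against 19.8 and 19.8 CPM in wild-type L1 larvae (0.57, SE 0.132, adjusted p = 0.00421 by edgeR). The mutant libraries of *spcs-1* were far apart, yet the lower one was still above both wild-type libraries. *spcs-3* had 49.5 and 56.9 CPM in mutant against 46.0 and 34.6 CPM in wild-type L1 larvae, with a narrow gap between the groups (0.40, SE 0.12, adjusted p = 0.0261 by edgeR). *spcs-2* had 25.0 and 22.5 CPM in mutant and 18.1 and 19.8 CPM in wild-type L1 larvae, and did not pass (0.33, adjusted p = 0.1 by edgeR).

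The COPII coat buds vesicles from ER exit sites, and 5 of the 9 listed genes rose. *sec-23* (chromosome V, 20091263 to 20105685), an inner coat subunit that also stimulates GTP hydrolysis by SAR1, had the smallest p of the 45 genes. It stood at 94.3 and 98.1 CPM in mutant against 64.9 and 61.3 CPM in wild-type L1 larvae, a log2 fold change of 0.61 (SE 0.0893, adjusted p = 4.6e-05 by edgeR). The gap between the genotypes was several times the difference within either. *sar-1* (chromosome IV, 4511893 to 4513319), the GTPase that starts coat assembly, stood at 111 and 111 CPM in mutant against 81.5 and 82.4 CPM in wild-type L1 larvae (0.44, SE 0.0853, adjusted p = 0.000908 by edgeR). *sec-24.1* (chromosome IV, 11561986 to 11566194), a cargo-binding inner coat subunit, had 166 and 152 CPM in mutant against 119 and 116 CPM in wild-type L1 larvae (0.44, SE 0.0858, adjusted p = 0.000909 by edgeR).

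The outer coat gene *sec-31* had 82.0 and 76.2 CPM in mutant against 60.36 and 60.95 CPM in wild-type L1 larvae (log2 fold change 0.38, adjusted p = 0.00526 by edgeR). *tfg-1*, whose product organizes ER exit sites, had 64.4 and 64.9 CPM in mutant against 53.3 and 44.8 CPM in wild-type L1 larvae (0.40, adjusted p = 0.00835 by edgeR). The groups did not overlap for either gene. *sec-12*, the exchange factor that loads SAR1 with GTP, had 40.0 and 41.8 CPM in mutant and 33.9 and 34.0 CPM in wild-type L1 larvae, and did not pass (0.27, adjusted p = 0.0886 by edgeR). The exit site scaffolds *sec-16A.1* and *sec-16A.2* had log2 fold changes of 0.019 and -0.0060, with overlapping libraries. The other SEC24 gene, *sec-24.2*, had 67.5 and 59.9 CPM in mutant and 67.7 and 66.8 CPM in wild-type L1 larvae (-0.078, adjusted p = 0.645 by edgeR).

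The paralogs *sec-24.1* and *sec-24.2* could be compared within each library, where scaling cancels. The ratio of their counts was 2.46 and 2.53 in mutant L1 larvae, against 1.75 and 1.74 in wild-type L1 larvae. In adults the ratio was 2.18 in the mutant and 1.97 in wild type. The ratio of *sec-23* to the scaffold *sec-16A.1* was 0.772 and 0.771 in mutant L1 larvae, against 0.529 and 0.495 in wild-type L1 larvae, and the ratio of *tmed-1* to *tmed-3* was 1.31 and 1.38 in mutant against 0.815 and 0.868 in wild-type L1 larvae. Both mutant libraries were above both wild-type libraries in each of these 3 ratios. The pairs were chosen after their values were seen and are given as a description. An exact permutation test of 2 libraries against 2 cannot go below p = 0.333.

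The p24 proteins are cargo receptors that cycle between ER and Golgi in both kinds of vesicle, and 2 of their 6 genes rose. *tmed-1* (chromosome IV, 12077107 to 12078162) stood at 33.9 and 36.3 CPM in mutant against 22.7 and 22.3 CPM in wild-type L1 larvae (log2 fold change 0.64, SE 0.116, adjusted p = 0.000474 by edgeR). *tmed-10* stood at 69.0 and 61.1 CPM in mutant against 45.9 and 49.3 CPM in wild-type L1 larvae (0.45, SE 0.0987, adjusted p = 0.00256 by edgeR). Neither gene had overlapping groups. *tmed-3* and *tmed-4* had overlapping groups, with log2 fold changes of -0.039 and 0.028. The remaining members were scarce, *tmed-13* with 63 and 49 reads in mutant and 42 and 32 reads in wild-type L1 libraries, and *tmed-12* with 30 and 26 reads in mutant and 18 and 26 reads in wild-type L1 libraries. Their log2 fold changes of 0.65 (SE 0.271) and 0.40 (SE 0.36) did not pass the test.

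Coatomer, the COPI coat, is a complex of 7 subunits that the GTPase ARF1 recruits to Golgi membranes, and 4 of the 8 listed genes rose. *copa-1* (chromosome I, 2895329 to 2900860), the alpha subunit, stood at 182 and 176 CPM in mutant against 141 and 129.9 CPM in wild-type L1 larvae (log2 fold change 0.40, SE 0.0851, adjusted p = 0.00186 by edgeR). *copd-1*, the delta subunit, had 74.5 and 61.3 CPM in mutant against 51.3 and 52.5 CPM in wild-type L1 larvae (0.39, adjusted p = 0.0107 by edgeR). Mutant replicate 1 was the higher of the pair for *copd-1*, and without it the change was 0.24 with an adjusted p of 0.128 by edgeR. *cope-1*, the epsilon subunit, had 35.8 and 34.6 CPM in mutant against 28.1 and 26.8 CPM in wild-type L1 larvae (0.36, adjusted p = 0.0295 by edgeR). *copg-1*, the gamma subunit, had 115 and 107 CPM in mutant against 92.7 and 93.4 CPM in wild-type L1 larvae (0.26, adjusted p = 0.043 by edgeR), and its gene lies 131301 bases from *ebax-1*. None of these 4 genes had overlapping groups. *arf-1*, the gene of the recruiting GTPase, had 109.6 and 111 CPM in mutant against 92.9 and 96.0 CPM in wild-type L1 larvae and did not pass (0.23, adjusted p = 0.0734 by edgeR). The beta subunit gene *copb-1* and the beta prime gene *copb-2* had log2 fold changes of 0.15 and 0.18 without passing. The groups did not overlap for these 3 genes either. The zeta subunit gene *copz-1* had 107.4 and 110.8 CPM in mutant and 107.6 and 111.7 CPM in wild-type L1 larvae (-0.0076, adjusted p = 0.968 by edgeR).

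Per kb of coding sequence, the 6 coatomer genes other than *copz-1* had nearly the same level, from 31.3 to 40.4 CPM per kb in wild-type L1 larvae. Their levels in mutant L1 larvae ran from 39.3 to 48.5 CPM per kb. *copz-1* stood apart, with 198 CPM per kb in mutant and 199 CPM per kb in wild-type L1 larvae. The ratio of *copz-1* reads to the summed reads of the other 6 coatomer genes was 0.161 and 0.177 in mutant L1 larvae, against 0.199 and 0.214 in wild-type L1 larvae, with no overlap. In adults that ratio was 0.109 in the mutant and 0.108 in wild type. *copz-1* was set apart after its values were seen, so the L1 difference in this ratio restates the L1 changes above. It is given as a description. Within the translocon, *sec-61.A* had 127 CPM per kb in mutant and 103 CPM per kb in wild-type L1 larvae, and *sec-61.G* had 146 CPM per kb in mutant and 95.7 CPM per kb in wild-type L1 larvae. *sec-61.B* was the low one of the 3 channel subunits, at 19.1 CPM per kb in mutant and 13.8 CPM per kb in wild-type L1 larvae.

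**Figure D2:**
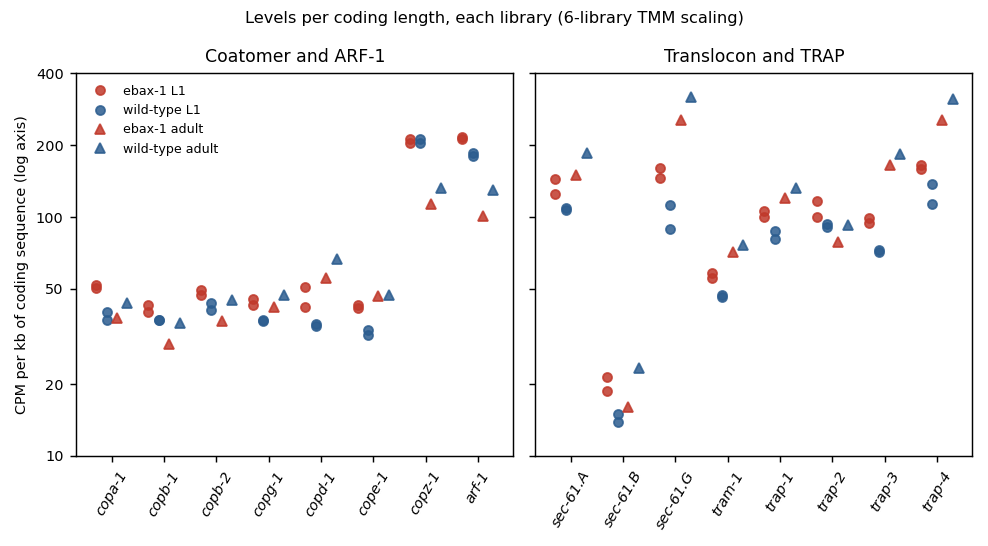
Level of each coatomer gene and *arf-1* (left) and of each translocon and TRAP gene (right) in CPM per kb of coding sequence on a log axis, after TMM scaling over all 6 libraries. Circles are L1 libraries and triangles adult libraries, *ebax-1* in red and wild type in blue, and *copz-1* and *arf-1* sit above the other coatomer genes in every library while *sec-61.B* sits below the other channel subunits.

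The SNARE genes *sec-22* and *sec-20* act between ER and Golgi. *sec-22* (chromosome X, 1035548 to 1037066) stood at 17.5 and 16.2 CPM in mutant against 10.7 and 10.3 CPM in wild-type L1 larvae, the largest change among the 24 genes that rose (log2 fold change 0.69, SE 0.154, adjusted p = 0.00308 by edgeR). *sec-20* had 10.8 and 9.63 CPM in mutant against 7.45 and 6.87 CPM in wild-type L1 larvae. Its groups did not overlap, but with 81 to 133 reads per library it did not pass (0.51, SE 0.186, adjusted p = 0.0635 by edgeR).

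The exocyst acts last in this pathway, and 2 of the 6 listed genes rose. *sec-15* had 30.1 and 31.5 CPM in mutant against 24.6 and 23.2 CPM in wild-type L1 larvae (log2 fold change 0.36, SE 0.118, adjusted p = 0.0382 by edgeR). *sec-6* had 55.3 and 51.2 CPM in mutant against 42.7 and 44.2 CPM in wild-type L1 larvae (0.29, SE 0.0988, adjusted p = 0.0461 by edgeR). Neither gene passed with DESeq2. *sec-3* and *sec-10* had log2 fold changes of 0.23 and 0.15, and *sec-5* had -0.049. *sec-8* was the 1 gene of the 45 whose mutant libraries were both below the wild-type ones, with 38.4 and 35.9 CPM in mutant and 39.7 and 43.6 CPM in wild-type L1 larvae (-0.16, adjusted p = 0.335 by edgeR). Under total count scaling 5 of the 6 exocyst genes were above 0, against 4 of 6 with TMM. The exocyst genes *exoc-8* and *exoc-7*, which the rule did not take, had log2 fold changes of -0.21 and -0.055 with TMM. Neither passed (adjusted p = 0.149 and 0.809 by edgeR), and both mutant libraries of *exoc-8* lay below both wild-type libraries.

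Of the 24 genes that rose, 7 passed the threshold under all 11 alternatives to the L1 fit. They were *sec-23*, *sar-1* and *sec-24.1* of the COPII coat, the signal peptidase genes *sec-11* and *spcs-1*, the cargo receptor gene *tmed-1* and the SNARE gene *sec-22*. Their log2 fold changes stayed between 0.37 for *sec-24.1* and 0.85 for *sec-22* over these alternatives. The other 17 lost the call under at least 1 alternative, among them all 4 COPI genes and all 6 translocon genes. *copa-1* lost it only without wild-type replicate 2 (adjusted p = 0.0929 by edgeR), and *sec-61.G* only without wild-type replicate 1 (adjusted p = 0.0747 by edgeR).

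**Figure D3:**
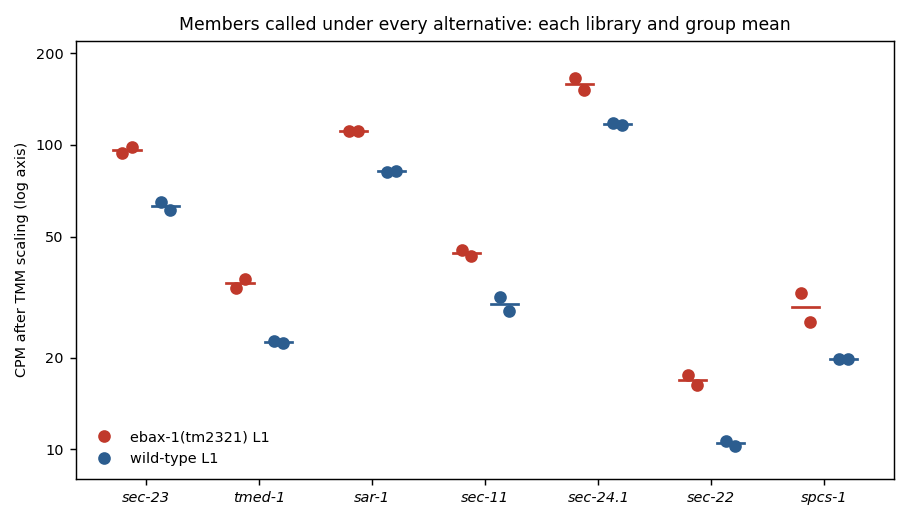
CPM after TMM scaling (log axis) of the 7 genes that passed the threshold under all 11 alternatives, in each *ebax-1(tm2321)* L1 library (red, left) and wild-type L1 library (blue, right), with a line at each group mean. For all 7 genes both mutant libraries lie above both wild-type libraries.

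The 45 genes lie on all 6 chromosomes. Genes that rose numbered 5 of 8 on chromosome I, 2 of 5 on II and 4 of 8 on III. On IV they numbered 8 of 13, on V 3 of 5 and on X 2 of 6. Over all chromosomes 6.59% of all genes tested rose, and that share was not counted for each chromosome. The coding sequences of the 45 genes overlapped no other gene on the same strand, and their coding lengths ran from 204 to 4908 bases.

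Further genes of ER folding, glycosylation, quality control and Golgi traffic were taken from a list of 62 symbols, of which 61 were in the table and tested. Of these, 23 rose and 2 fell in mutant L1 larvae, beside 6.59% and 9.97% of all genes, and the median of their log2 fold changes was 0.23. The smallest p-values belonged to the ER chaperone and oxidation genes. *hsp-4*, an ER HSP70, stood at 541 and 457 CPM in mutant against 219 and 189 CPM in wild-type L1 larvae (1.29, adjusted p = 7.23e-09 by edgeR), and its paralog *hsp-3* changed by 0.75. The disulfide isomerase genes *pdi-6*, *pdi-2* and *pdi-1* changed by 0.92, 0.85 and 0.65, and the ER cochaperone gene *dnj-7* by 0.76. The 2 that fell are named after their values were seen. *cnx-1*, which encodes the lectin chaperone calnexin, had 211.9 and 185.9 CPM in mutant against 269 and 297 CPM in wild-type L1 larvae (-0.51, adjusted p = 0.000388 by edgeR), and *pek-1*, a kinase of the unfolded protein response, changed by -0.31 (adjusted p = 0.016 by edgeR).

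Some markers of other cells moved in the same larvae, where 6.59% of all genes tested rose and 9.97% fell. Of 14 oocyte and maternal RNA markers, 9 rose and 0 fell, none was at 0 in all L1 libraries, and their summed level was 271 and 217 CPM in mutant against 131 and 125 CPM in wild-type L1 larvae. Of 8 intestine markers 1 rose and 3 fell, with 11700 and 12660 CPM in mutant against 15010 and 15950 CPM in wild-type L1 larvae. Most of this sum came from *asp-1*, and the intestine markers that did not pass had log2 fold changes from -0.084 to 0.19. Of 6 body wall muscle markers 3 fell and 0 rose, with 16200 and 18450 CPM in mutant against 21050 and 23750 CPM in wild-type L1 larvae. Most of this sum came from *unc-54*, which fell. The muscle markers that did not pass, *lev-11*, *myo-3* and *unc-27*, had log2 fold changes of 0.19, 0.069 and 0.036. Of 7 neuron markers 1 fell and 0 rose, of 6 pharynx markers 1 rose and 0 fell, and of 5 tested hypodermis markers none passed. The yolk genes and the sperm genes had 3 tested markers each, none of which passed. In all L1 libraries 1 of 6 yolk and 5 of 9 sperm rows were at 0. With so few markers, the counts for neuron, pharynx, hypodermis, yolk and sperm cannot be told apart from the shares of all genes. The part of all these markers in the rise of the secretory pathway genes was not tested.

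In adults, with 1 library per genotype, the values of these genes were spread around a small negative change. The median log2 fold change of the 45 genes was -0.092 in mutant over wild-type adults, beside -0.0032 over all 13563 genes measured. It was below 0 for 30 genes and above 0 for 15, beside 50.4% of all genes below 0, and total count scaling gave 27 below and 18 above. Only *tmed-13* was at least 1.5-fold higher, beside 8.83% of all genes, and 0 were at least 1.5-fold lower, beside 7.76%. *tmed-13* was counted 46 times in the mutant and 44 times in the wild-type adult, fewer than the 100 counts set for naming an adult change, so it is named for this value after it was seen. With 1 library per genotype these values have no replicate check, and the intervals below cover counting error only.

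The adult values differed by role. All 8 translocon genes were below 0, with log2 fold changes of -0.49 to -0.041, and all 6 exocyst genes were above 0, with 0.060 to 0.28. These directions were the same under TMM, RLE and total count scaling. *sec-61.A* stood at 241 CPM in the mutant and 287 CPM in the wild-type adult, a ratio of 0.839 (95% exact binomial interval 0.804 to 0.876). *sec-6* stood at 133 CPM in the mutant and 109 CPM in the wild-type adult, a ratio of 1.22 (1.14 to 1.29). The intervals of both genes exclude equal levels in these 2 libraries, which was common. Over all 13563 genes measured, 3348 had an interval above 1 and 3278 an interval below 1. Of the 8 translocon genes 6 had an interval below 1, and of the 6 exocyst genes 4 had an interval above 1. Of the 8 COPI genes 7 were below 0, and of the 9 COPII genes 8, or 7 under total count scaling. The summed reads of the translocon group over those of the exocyst were 1.49 in the mutant and 1.9 in the wild-type adult. In L1 larvae they were 2.48 and 2.43 in mutant and 2.17 and 2.1 in wild type. The adult ratio pairs the groups with opposite directions above, so its difference follows from those values and is given as a description.

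Most of the genes that rose in mutant L1 larvae had lower values in the mutant adult. Of the 24, 17 were below 0 in adults and 7 above, and their adult median was -0.094, beside -0.092 for the other 21 genes. The counting interval was below 1 for 12 of the 24 and above 1 for 2, beside 22 and 7 of all 45 genes. *sec-23*, for example, stood at 96.5 CPM in the mutant and 117 CPM in the wild-type adult, a ratio of 0.822 (0.768 to 0.88). *sec-22* had 13.5 CPM in the mutant and 11.5 CPM in the wild-type adult, with an interval of 0.958 to 1.42 that includes equal levels.

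**Figure D4:**
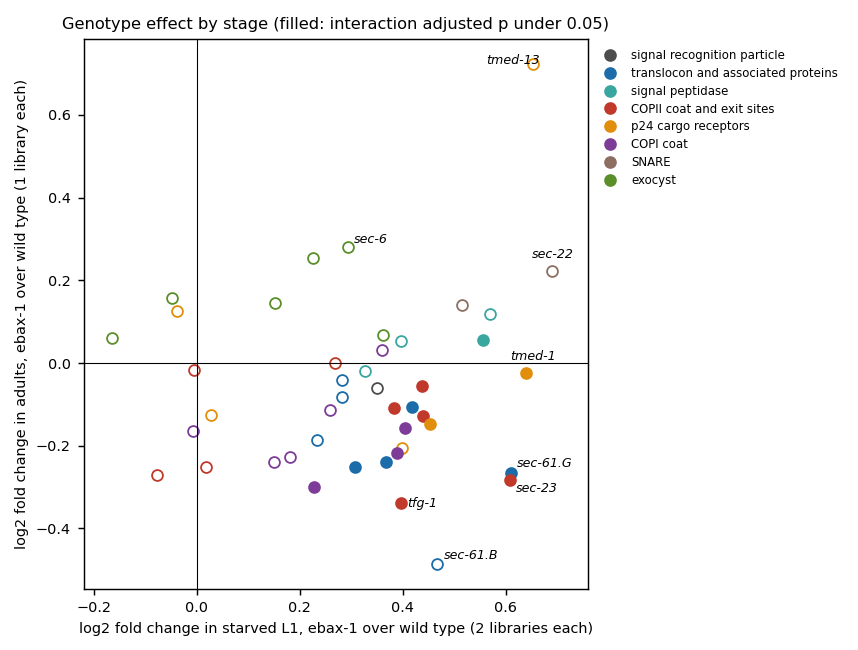
Log2 fold change of 44 of the 45 genes, *ebax-1* over wild type, in adults (1 library per genotype, vertical axis) against starved L1 larvae (2 libraries per genotype, horizontal axis), coloured by role. Filled points are the 15 genes that passed the interaction test, all of them right of 0 in L1 larvae and all but *sec-11* below 0 in adults.

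The difference between the stages was itself tested as an interaction over all 6 libraries, with the single adult libraries assumed to vary like the larval ones. All of the spread in this test therefore came from the L1 replicates, and an adult genotype difference cannot be told apart from variation between single adult libraries. Under that assumption, for 15 of the 45 genes the adult effect was below the L1 effect (33.3%), beside 4.66% of the 16376 genes tested, and for 0 it was above, beside 4.49% (edgeR, threshold 0.05 after adjustment). Among the genes with an adult effect above the L1 effect, 0 had an unadjusted p under 0.05. The count of 15 became 9 without wild-type L1 replicate 1, 8 without wild-type L1 replicate 2 and 22 without mutant L1 replicate 2. The largest differences that passed were those of *sec-23* (-0.95, SE 0.156, adjusted p = 9.38e-05 by edgeR) and *sec-61.G* (-0.93, SE 0.203, adjusted p = 0.00233 by edgeR). *tfg-1* (-0.80) and *tmed-1* (-0.72) followed. By role, the 15 were 5 COPII, 4 translocon, 3 COPI, 2 p24 and 1 signal peptidase gene. None of the 6 exocyst genes passed, and their differences ran from -0.35 for *sec-15* to 0.17 for *sec-8*. Because the mutant strain changed with the stage, strain and stage cannot be told apart in these differences.

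The levels were also compared between stages. In wild type, on TMM scaling over all 6 libraries, the median log2 ratio of adult over L1 was 0.65 over the 45 genes, beside 0.060 over all genes. At least 2-fold higher in the adult were 13 genes (28.9%), beside 36.1% of all genes, and at least 2-fold lower was 1, *sec-16A.2*, beside 33.2%. Both shares were below those of all genes. RLE scaling gave a median of 0.82 over the 45 genes and 0.23 over all genes, and total count scaling gave 0.91 and 0.32.

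The signal peptidase group had the highest median ratio, 1.84. *spcs-2* stood at 83.8 CPM in the wild-type adult against 19.0 and 20.8 CPM in wild-type L1 larvae (log2 ratio 2.07), and *spcs-1* at 85.9 CPM against 20.7 and 20.8 CPM (2.04). *tmed-1* stood at 97.5 CPM in the wild-type adult against 23.9 and 23.4 CPM in wild-type L1 larvae (2.04). For these genes the adult level was about 4 times that of the larvae. *spcs-3* was the exception in its group, with 46.9 CPM in the wild-type adult, inside the range of 36.3 to 48.3 CPM in the wild-type L1 libraries. COPI and COPII genes had group medians near the level of all genes, at 0.13 and 0.0998.

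The lowest ratio was that of *sec-16A.2*, with 86.0 CPM in the wild-type adult against 239 and 236 CPM in wild-type L1 larvae (log2 ratio -1.46). Its paralog *sec-16A.1* stood at 155 CPM in the wild-type adult against 129 and 129.9 CPM in wild-type L1 larvae (0.26). The order of the scaffold paralogs was thus opposite at the 2 stages, with a count ratio of *sec-16A.2* to *sec-16A.1* of 0.555 in the wild-type adult against 1.86 and 1.81 in wild-type L1 larvae. In the mutant it was 0.653 in the adult against 1.81 and 1.8 in L1 larvae. *tmed-13*, at 1.91 CPM in the wild-type adult against 3.46 and 2.85 CPM in wild-type L1 larvae (-0.69), and *copz-1*, at 72.8 CPM against 113 and 117 CPM (-0.66), were next lowest. Strain is the same for both stages in wild type, but feeding, RNA input and the presence of a germline with embryos differ along with stage.

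**Figure D5:**
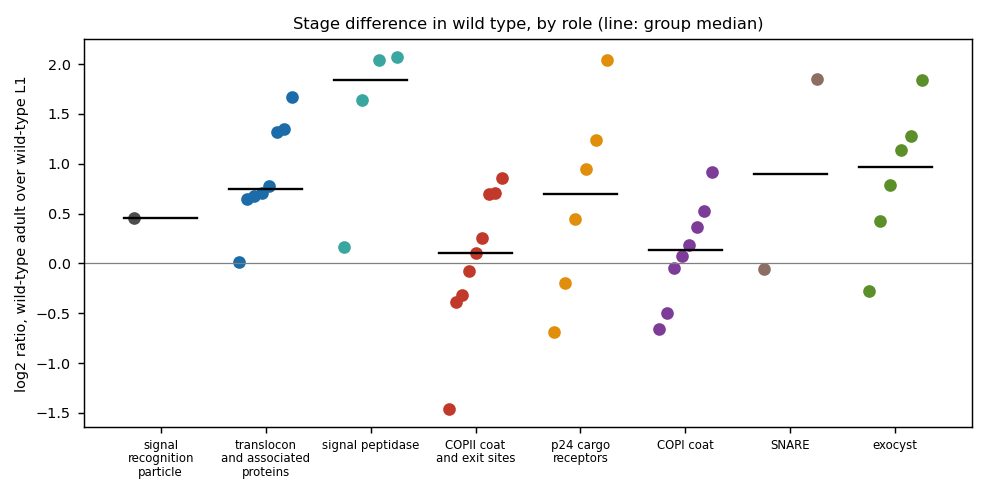
Log2 ratio of the wild-type adult library over the mean of the 2 wild-type L1 libraries (vertical axis, TMM scaling over all 6 libraries, prior count 1) for 44 of the 45 genes, grouped by role, with a line at the group median. Signal peptidase genes lie highest with a median of 1.84, and the lowest point is *sec-16A.2* at -1.46.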

How the data were processed

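The authors deposited raw read counts for each gene, unnormalized. Per the labels and the study's methods, unique STAR 2.7.1a alignments of single-end reads were assigned by featureCounts, with strand, to coding sequence (build WBcel235), which leaves out untranslated regions and sequence common to close paralogs. The study describes the L1 libraries as biological replicates. Replicate counts differed beyond sampling error (chi-square per degree of freedom 6.42 in mutant and 3.98 in wild-type L1 larvae). These values cannot tell biological from technical variation. Symbols, positions and coding lengths came from Ensembl release 115.

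L1 genotypes were compared on these counts with edgeR 4.0.16 in R 4.3.3 (filterByExpr minimum count 10, TMM, two-sided quasi-likelihood F-test, Benjamini-Hochberg adjustment, 0.05). The SE was the log2 fold change over the root of F. Adult log2 ratios had no test and used TMM-scaled CPM, prior count 1, where the pair of libraries held 50 counts or more, with exact binomial intervals at 95%. Interaction and stage values used TMM factors over all 6 libraries. Of the 11 alternatives to the L1 fit, 1 was DESeq2 1.42.0.

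The genes that the naming rule gave were those called in L1 larvae or by the interaction, the 3 highest and 3 lowest stage ratios, adult changes of 1.5-fold with at least 100 counts, and 6 genes of the wider list. Other genes are named beside their groups and were chosen after their values were seen. Members and lists were chosen with earlier results of these data known. The individual values of 1 member, which is in the counts over all 45 genes, are not reported here.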

Additional observations from a re-analysis of the deposited data

Results flagged for a closer look

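For 15 of the 45 genes the adult genotype effect was below the L1 effect by the interaction test, which assumes that the single adult library of each genotype varies like the L1 replicates. Variation between adult libraries of a genotype was not measured. The differences, adult minus L1 on the log2 scale, were -0.95 for *sec-23*, -0.63 for *sec-24.1*, -0.80 for *tfg-1*, -0.55 for *sec-31* and -0.55 for *sar-1* in the COPII group. They were -0.93 for *sec-61.G*, -0.67 for *trap-4*, -0.62 for *sec-61.A* and -0.58 for *trap-3* at the translocon. Among COPI genes they were -0.66 for *copd-1*, -0.62 for *copa-1* and -0.59 for *arf-1*. The cargo receptor genes *tmed-1* and *tmed-10* had -0.72 and -0.66, and the signal peptidase gene *sec-11* had -0.56. *arf-1* is the 1 gene of the 15 that did not pass the L1 test. No group had enough libraries to look for a single library far from the others.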

How the results depend on the processing

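Of the results over the 45 genes, the L1 count of rises moved from 24 to 13 with DESeq2 and ran from 11 to 25 when 1 library was left out, and the count of falls was 0 in every alternative. The L1 median log2 fold change of 0.35 moved to 0.51 with total count scaling and ran from 0.28 to 0.37 when 1 library was left out. The interaction count of 15 ran from 8 to 22 when 1 L1 library was left out. The adult median moved from -0.092 to -0.068 with total count scaling. The stage median of 0.65 moved to 0.91 with total count scaling and 0.82 with RLE factors, and ran from 0.59 to 0.62 without 1 wild-type L1 library. The deviations of same-numbered L1 libraries had a correlation of -0.0112 over all genes and 0.0549 over the 45 genes. A correlation over many genes cannot tell whether same-numbered libraries shared a batch. A fit with the replicate number as a block gave 22 rises, 0 falls and a median of 0.35. *arf-1* passed the L1 test with total count scaling (adjusted p = 0.00177 by edgeR) and among genes with over 50 reads in both wild-type libraries (0.0414). No gene named in the L1 comparison changed direction while called. Depth limited *sec-61.B*, *tmed-12* and *tmed-13* most.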
